A study of Gallus gallus with 12 samples.

Results

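The genes described here encode mitogen-activated protein (MAP) kinases and the 3 tiers of kinases above them (MAP2K, MAP3K and MAP4K genes). They also include dual-specificity phosphatases (DUSP genes), among them those with a docking domain, which act against MAP kinases. Sprouty and related proteins (SPRY and SPRED genes), which act against the signalling upstream, complete the set. Members were taken by symbol alone: a probe set counted if the array annotation gave it 1 gene, with a symbol made of DUSP, MAPK, MAP2K, MAP3K, MAP4K, SPRY or SPRED and a number. This found 139 probe sets for 58 genes, of 13009 genes that the array names in this way. Where a gene had several probe sets, as 42 of the 58 did, the probe set with the highest mean over the 12 arrays stood for it. Of the 58 genes, 48 passed the filter on low signal and were tested. MAPK3, which encodes ERK1, was not analysed here.

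All chicks were male, lived 7 days with 12 h of light per day, spent a further day in constant darkness and were 8 days old when glands were taken. Light chicks received 1 h of light from CT6 (circadian time, in hours), in the subjective day, CT14, in the early subjective night, or CT22, in the late subjective night, and dark chicks of the same times received none. Pineal glands were collected as the pulse ended, and RNA of 6 glands was pooled for each sample. The 6 groups (CT6 light, CT6 dark, CT14 light, CT14 dark, CT22 light and CT22 dark) had 2 arrays each. Setting light against dark at each time asks how far the effect of light varies over the day.

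MAP kinases are the last of a relay of kinases that carry signals from the cell surface, from stress and from light to the nucleus. The ERK branch is driven by RAS, RAF and the MAP2K1 and MAP2K2 proteins, the p38 branch (MAPK11 to MAPK14) by MAP2K3 and MAP2K6, and the JNK branch (MAPK8 to MAPK10) by MAP2K4. DUSP proteins with a docking domain for MAP kinases remove the activating phosphates from them, and several of their genes are themselves switched on by MAP kinase signalling in mammalian cells, as are SPRY genes, whose products act against RAS and RAF. The chick pineal gland is built mainly of pinealocytes, which sense light directly, hold a circadian clock and make melatonin. The arrays measure RNA and say nothing of the phosphorylation of the kinases.

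Values are log2 intensities after quantile normalization, differences are light minus dark, and each SE is the standard error that limma gave. Adjusted p-values are Benjamini-Hochberg values over the 23063 tested probe sets, and 0.05 was the threshold. Median intensity as deposited lay between 20.1 and 28.9 per array, and replicate arrays correlated across probe sets with r from 0.964 to 0.975. RNA quality was read from actin probe sets, as signal near the end of the transcript over signal near its start: this ratio was 3.28 and 3.09 in CT14 light arrays against 4.67 and 3.95 in CT14 dark arrays. Of 16 listed pinealocyte and photoreceptor markers 14 were named on the array, with mean log2 values of 4.10 to 13.2 and none at the floor on any array. Of the listed markers of erythrocytes, leukocytes, fibroblasts, vessels, glia, neurons, choroid plexus and muscle, 1 of erythrocytes and 1 of vessels was at the floor on some array. None was at the floor on all arrays. The lowest means were 1.99 for erythrocyte, 1.32 for vessel, 3.29 for muscle and 3.51 for neuron markers, under the filter of 3.73. A value above the floor does not show that a cell type was present, and signal alone does not tell these cell types apart. In pooled whole glands fewer cells of a type and less RNA per cell cannot be told apart. P-values reflect the spread between pools of glands, and 2 arrays per group limit the precision.

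None of the 48 tested members passed the threshold at CT6, where 0.221% of all probe sets did, and none passed at CT14, where 1.67% did. At CT22, 4 members passed, against 3.64% of all probe sets: DUSP15 and SPRY2 were higher in light (1.73% of all probe sets were), and DUSP8 and MAP3K13 were lower (1.92% were). Averaged over the 3 times, 4 members passed against 3% of all probe sets, with MAPK4, DUSP1 and DUSP15 higher (1.78%) and DUSP8 lower (1.22%). Few arrays carry these counts, and over all probe sets fewer passed at CT22 as well when a CT22 array was left out. DUSP15, SPRY2 and MAP3K13 lost their CT22 calls without any one CT22 array. Of the CT22 arrays, only the second light array could be left out without ending the CT22 call of DUSP8. MAP3K15 gained a CT22 call without the first CT22 dark array. For the average, fewer members and fewer of all probe sets passed without the second CT14 dark, the second CT14 light or either CT22 dark array. At CT14, MAP2K3 and DUSP15 passed with values as deposited, DUSP1 and DUSP15 without the first CT6 dark array, and DUSP1 without the second. At an unadjusted p under 0.05 the limma fit gave 3 members at CT6, 12 at CT14 and 11 at CT22, while 9.94%, 14% and 16.9% of all probe sets reached this level. The median difference over the 48 members was -0.01 at CT6, -0.03 at CT14 and 0.02 at CT22, and over all probe sets tested it was 0.00, 0.00 and -0.01.

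The size of response that could have been missed differed between genes. The SE of the difference at a single time had a median of 0.17 over the 48 members and ran from 0.08 to 0.79, against a median of 0.20 over all probe sets tested. The 95% interval of the light response lay wholly between -1 and 1 for 40 members at CT6, 37 at CT14 and 41 at CT22. For the others a change of more than 1 log2 unit remained within the interval. The light arrays lay wholly above the dark arrays for 8 members at CT6, 13 at CT14 and 17 at CT22, where 20.9%, 22.1% and 23.2% of all probe sets did. They lay wholly below for 8, 15 and 11 members, where 20.0%, 21.5% and 24.7% of all probe sets did. Both light arrays exceeded both dark arrays at all 3 times for DUSP15 and MAPK4, a pattern of 2.24% of all probe sets. They lay below at all 3 times for MAPK12 alone among the 48, a pattern of 1.48% of all probe sets. The signal of MAPK12 was low, with a mean of 4.09 against the filter of 3.73.

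**Figure D1:**
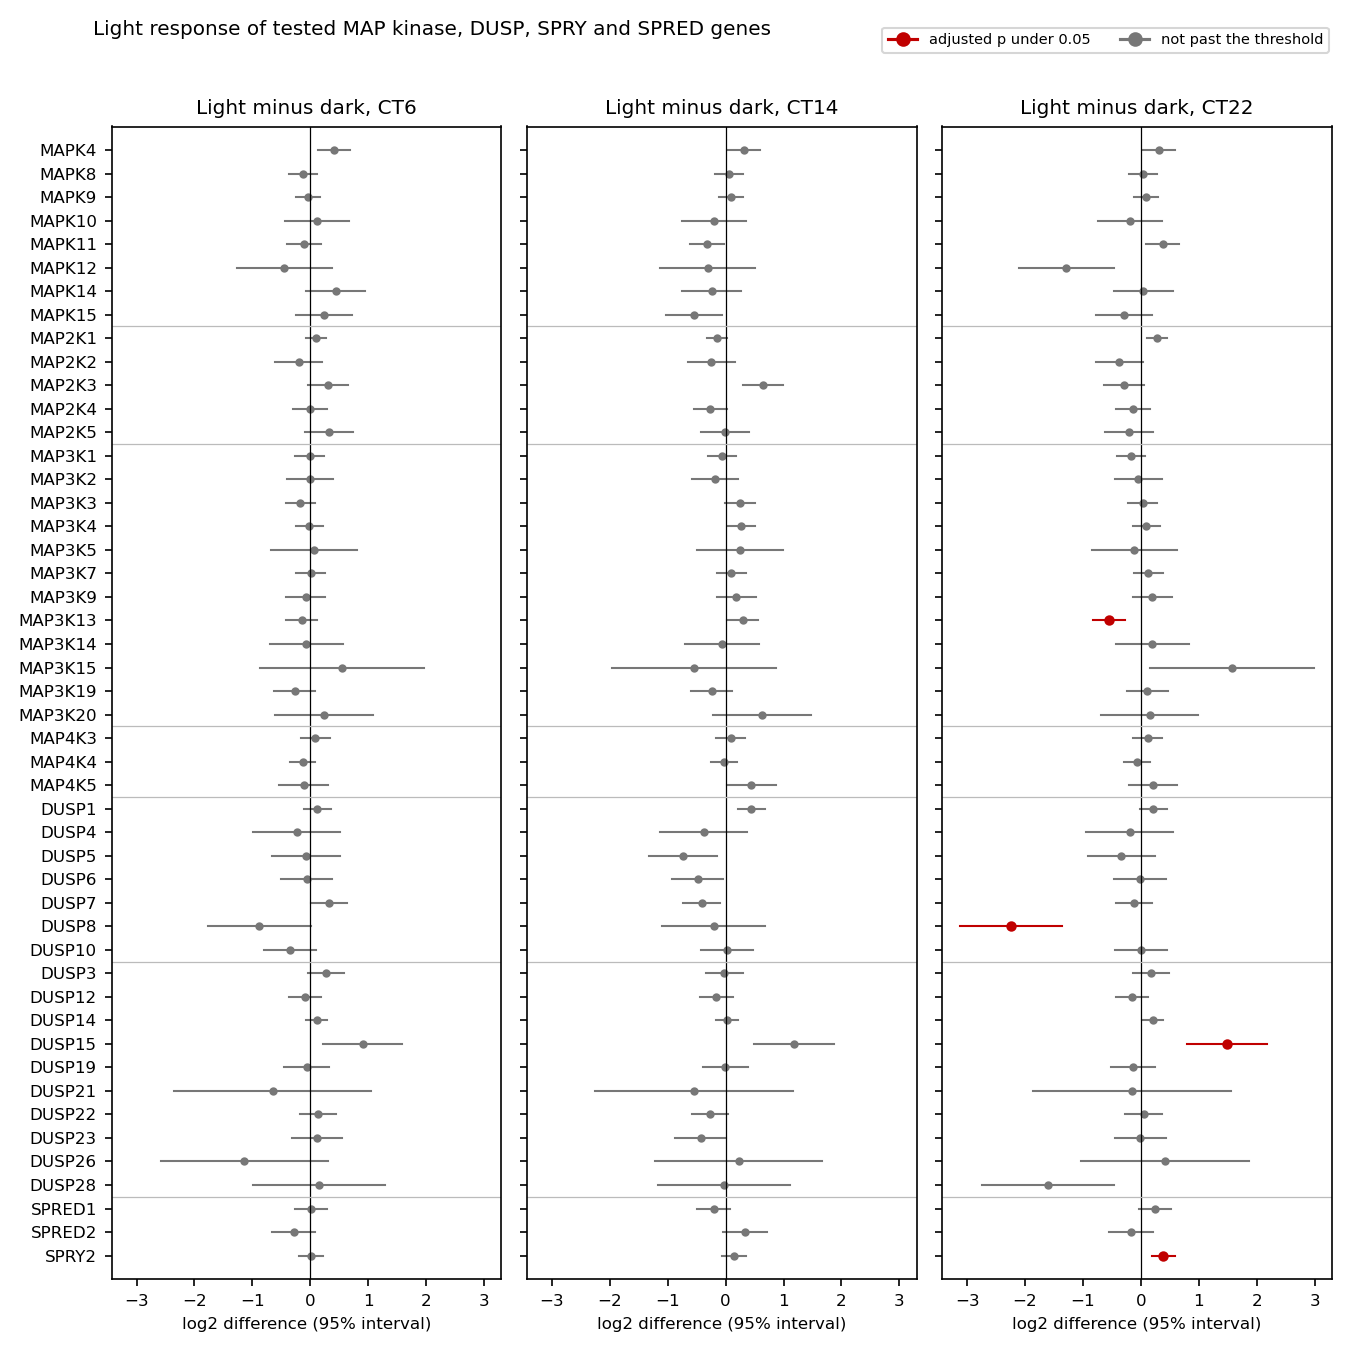
Light minus dark difference (log2, x axis) with its 95% interval for the 48 tested members at CT6, CT14 and CT22, ordered by role from MAP kinases at the top to SPRY and SPRED genes at the bottom. Red points passed an adjusted p of 0.05: the 4 at CT22 are MAP3K13 (-0.55), DUSP8 (-2.24), DUSP15 (1.49) and SPRY2 (0.39), and the CT6 and CT14 panels have none.

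Among the phosphatases with a docking domain, DUSP8, which acts mainly on JNK and p38 in mammals, was the gene with the largest change. At CT6 DUSP8 read 4.45 and 5.82 in light arrays against 6.06 and 5.98 in dark arrays. At CT14 it read 5.28 and 5.02 in light arrays against 4.87 and 5.85 in dark arrays. At CT22 it read 2.79 and 3.37 in light arrays against 5.30 and 5.35 in dark arrays. The CT22 light arrays were the lowest of all 12, the groups overlapped at CT14 but not at CT6 or CT22, and at CT6 one light array stood 1.36 below the other. The CT22 difference was -2.24 (SE 0.41, adjusted p = 0.00948), a 4.74-fold lower signal in light, and the average over the 3 times was -1.11 (SE 0.24, adjusted p = 0.0197). The mean of the CT22 light arrays, 3.08, lay under the log2 value of 3.73 that the mean over all arrays had to exceed. At such signals the size of the change is uncertain: with 16 added to every intensity before log2 the CT22 difference was -1.19 and the average -0.66. The further 2 probe sets of DUSP8, with means of 3.46 and 2.62, were too dim to test. The CT22 call was lost without the first dark array of that time (adjusted p = 0.0710), the second dark array (0.0637) or the first light array (0.0579), with differences of -2.27, -2.22 and -1.95. The average call was lost when any one of 6 arrays was left out, the first CT6 dark, the second CT14 dark, the second CT14 light, both CT22 dark and the first CT22 light array, at adjusted p-values of 0.0513 to 0.0622.

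DUSP1, the inducible nuclear phosphatase of p38, JNK and ERK, was higher in light by a small amount. DUSP1 read 9.73 and 9.90 in light arrays against 9.82 and 9.57 in dark arrays at CT6. It read 9.75 and 9.54 in light arrays against 9.10 and 9.30 in dark arrays at CT14. It read 9.59 and 9.75 in light arrays against 9.44 and 9.48 in dark arrays at CT22. Light and dark overlapped at CT6 and were apart at CT14 and CT22, and the widest gap, at CT14, came with the lowest dark values of the 3 times. The differences were 0.12, 0.44 and 0.21 (SE 0.11 each), of which the CT14 value had an adjusted p of 0.0642. The average, 0.26 (SE 0.06), a 1.20-fold higher signal, passed with an adjusted p of 0.0433. That call was close to the threshold: it was kept under 10 of 22 alternative settings and lost under 12, 7 of them with 1 array left out (adjusted p from 0.0898 to 0.126 and differences from 0.22 to 0.27). The arrays concerned were the second CT6 dark, the second CT6 light, the first CT14 dark, the first CT14 light, both CT22 dark and the second CT22 light array. Adding the actin ratio to the fit gave an average of 0.18 (adjusted p = 0.502).

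The ERK phosphatases DUSP5, DUSP6 and DUSP7 did not pass the test for light at any time. DUSP5, a nuclear phosphatase of ERK, read 5.13 and 5.28 in CT14 light arrays against 5.91 and 5.96 in CT14 dark arrays, a difference of -0.73 (SE 0.27, adjusted p = 0.233). DUSP6, a cytoplasmic ERK phosphatase, read 6.05 and 6.34 in CT14 light arrays against 6.74 and 6.61 in CT14 dark arrays, a difference of -0.48 (SE 0.21, adjusted p = 0.304). DUSP7, close to DUSP6 in sequence and substrate, read 6.09 and 6.07 in CT14 light arrays against 6.57 and 6.42 in CT14 dark arrays, a difference of -0.41 (SE 0.15, adjusted p = 0.216). For each of these genes both CT14 light arrays lay below both CT14 dark arrays, where 21.5% of all probe sets did. The CT14 dark mean was the highest of the 3 dark means, as for 36.0% of all probe sets. Both patterns use the same CT14 dark arrays. At CT6 the differences of DUSP5, DUSP6 and DUSP7 were -0.07, -0.06 and 0.32, and at CT22 they were -0.34, -0.02 and -0.12. Both CT6 light arrays of DUSP7 lay above both CT6 dark arrays, with a gap of 0.25. DUSP4, another nuclear phosphatase of the group, differed by -0.24, -0.38 and -0.19 at CT6, CT14 and CT22 (SE 0.35), and DUSP10, which acts on p38 and JNK, by -0.35, 0.02 and 0.01 (SE 0.21). Over the 7 tested phosphatases of this group the median light response was -0.07 at CT6, -0.38 at CT14 and -0.12 at CT22. At each time 5 of 7 values were below 0, as were 11492, 11481 and 11795 of all 23063 probe sets tested. DUSP16, a further phosphatase of JNK and p38, was not tested because its signal, 2.54 to 4.24 over the 12 arrays, had a mean of 3.61.

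The other DUSP genes lack the docking domain, and DUSP15 was the member of this group with a light response. DUSP15 encodes a small atypical phosphatase, known in mammals from testis and from the glial cells that make myelin. DUSP15 read 5.04 and 5.32 in light arrays against 3.83 and 4.73 in dark arrays at CT6. It read 5.53 and 5.50 in light arrays against 4.56 and 4.12 in dark arrays at CT14. It read 5.65 and 5.89 in light arrays against 4.05 and 4.50 in dark arrays at CT22. All 6 light arrays lay above all 6 dark arrays, with a gap of 0.31 between the lowest light and the highest dark value. The differences were 0.90, 1.18 and 1.49 (SE 0.32 each), with adjusted p-values of 0.343, 0.0931 and 0.0215. The CT22 signal was 2.80-fold higher in light, and the average over the 3 times was 1.19 (SE 0.18, adjusted p = 0.00237), or 2.28-fold. The average call held under all 21 alternative settings that gave a value, from 0.77, with 16 added before log2, to 1.50, and the test that the response differed between times gave an adjusted p of 0.753. The call at CT22 was lost when any of the 4 arrays of that time was left out, with differences of 1.26 to 1.71 and adjusted p-values of 0.0540 to 0.182, and its size was 0.99 with 16 added before log2. DUSP15 was represented by 1 probe set, so no further probe set bears on it.

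The remaining 9 tested genes of this group had no call for light. DUSP28 read 2.20 and 3.73 in CT22 light arrays against 4.81 and 4.34 in CT22 dark arrays, a difference of -1.61 (SE 0.53, adjusted p = 0.125). Its mean of 3.96 was near the filter of 3.73. DUSP26 read 5.51 and 2.39 in CT6 light arrays against 5.55 and 4.62 in CT6 dark arrays, so that a single array carried the difference of -1.14 (SE 0.67, adjusted p = 0.608). Without the first CT6 light array the same contrast gave -2.70 and an adjusted p of 0.0135. For DUSP21, the tested member nearest the filter (mean 3.83, with DUSP29 just outside it at 3.67), the CT22 light arrays read 2.27 and 5.03 against 3.78 and 3.83 in dark arrays. DUSP14, which acts on JNK and ERK in mammals, differed by 0.11, 0.03 and 0.20 at the 3 times (SE 0.08). DUSP13, DUSP27 and DUSP29 were not tested.

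**Figure D2:**
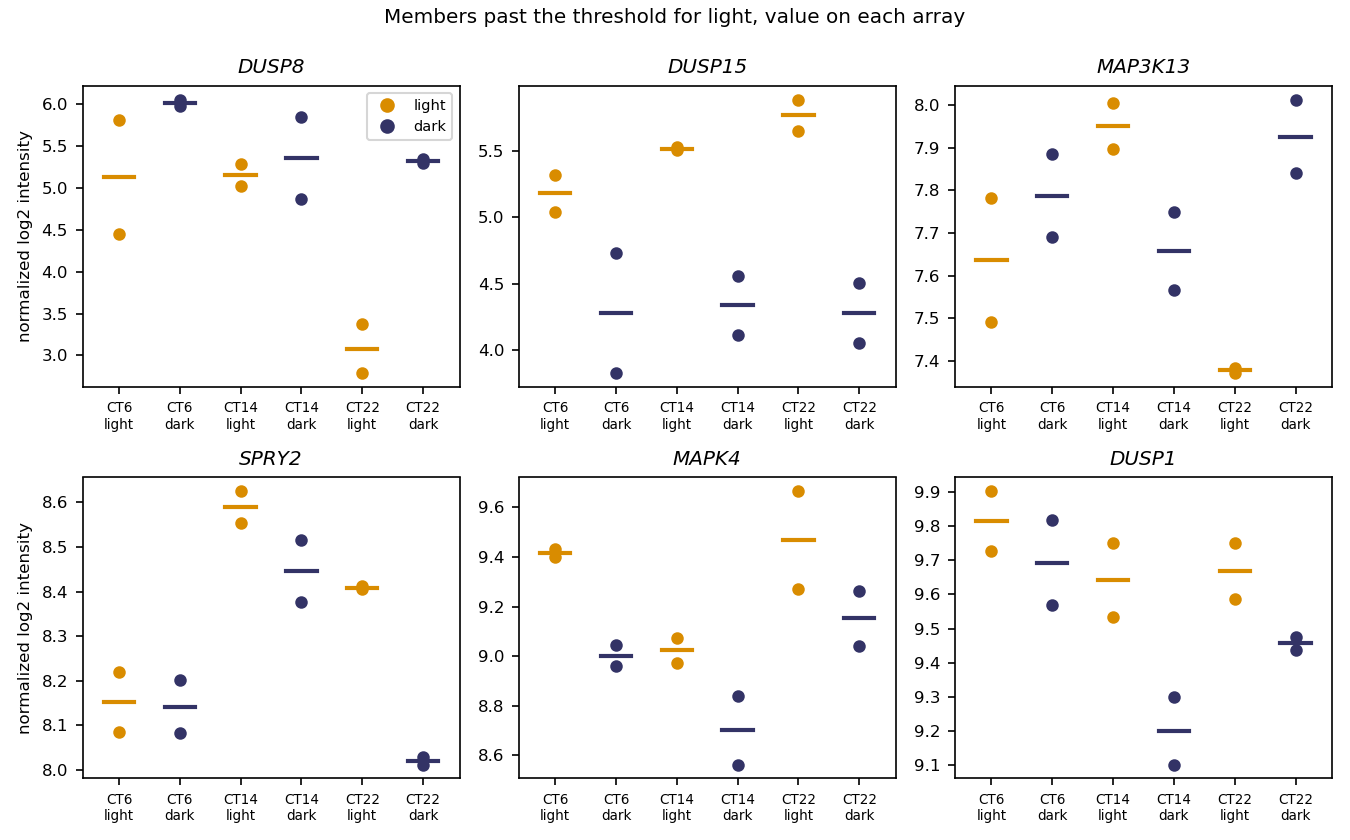
Normalized log2 intensity (y axis, scaled for each gene) on each of the 12 arrays for the 6 members that passed the threshold at CT22 or on average over the times, with light (orange) beside dark (blue) at CT6, CT14 and CT22 and bars at the group means. For DUSP15 and MAPK4 both light arrays lie above both dark arrays at every time, while the CT22 light arrays of DUSP8, at 2.79 and 3.37, stand below all others.

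Among the MAP kinases, MAPK4 was higher in light on average over the times. MAPK4 encodes ERK4, an atypical kinase that pairs with the kinase MAPKAPK5 and lacks the usual activation by MAP2K proteins. MAPK4 read 9.43 and 9.40 in light arrays against 9.04 and 8.96 in dark arrays at CT6. It read 8.97 and 9.07 in light arrays against 8.84 and 8.56 in dark arrays at CT14. It read 9.67 and 9.27 in light arrays against 9.26 and 9.04 in dark arrays at CT22, where the gap between the groups was 0.01. The differences were 0.41, 0.32 and 0.32 (SE 0.13 each), none past the threshold alone, and their average was 0.35 (SE 0.07, adjusted p = 0.0180), a 1.28-fold higher signal. The gene had 4 probe sets, all tested. The probe set with the next highest mean (8.98) gave 0.27, 0.43 and 0.43, passed at CT14 (adjusted p = 0.0217) and CT22 (0.0160), and averaged 0.38 (SE 0.05, adjusted p = 5.90e-04). In the dark this probe set also varied with time (adjusted p = 0.00447), where the first gave 0.103. A dimmer one (mean 5.22) averaged 0.59 (adjusted p = 0.0465), and the dimmest (mean 4.43) averaged 0.06 (adjusted p = 0.934). The average call of the first probe set was lost when the first CT6 light (adjusted p = 0.0528), the second CT14 dark (0.0502), the second CT14 light (0.0606) or the second CT22 dark array (0.0656) was left out, with values of 0.30 to 0.35. Adding the actin ratio to the fit gave 0.33 (adjusted p = 0.276).

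**Figure D3:**
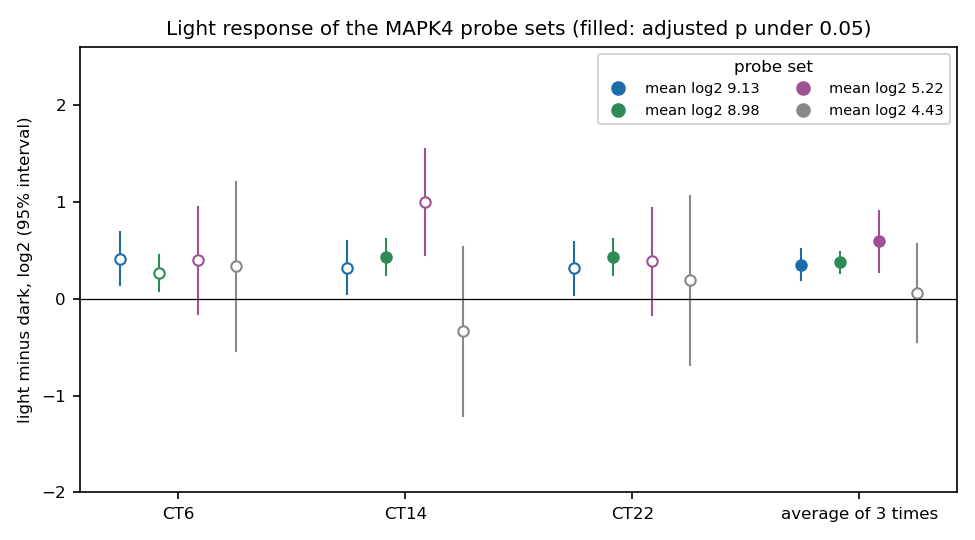
Light minus dark difference (log2, y axis) with its 95% interval at CT6, CT14 and CT22 and on average over the 3 times for the 4 probe sets of MAPK4, coloured by their mean log2 signal over the 12 arrays, with filled points for an adjusted p under 0.05. The probe sets with means of 9.13 and 8.98 lie between 0.27 and 0.43 at every time, and the one with a mean of 4.43 lies at -0.34 at CT14.

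None of the other 7 tested MAP kinases passed for light. The JNK gene MAPK8 differed by -0.13, 0.06 and 0.03 at CT6, CT14 and CT22 (SE 0.11), and MAPK9 by -0.04, 0.09 and 0.08 (SE 0.10). The p38 gene MAPK14 differed by 0.43, -0.24 and 0.04 (SE 0.24), with a CT6 value that rested on 1 light array at 9.37 beside another at 8.46. MAPK12, another p38 gene, read 3.10 and 3.67 in CT22 light arrays against 4.44 and 4.90 in CT22 dark arrays, a difference of -1.29 (SE 0.38, adjusted p = 0.0893). Its mean over the 12 arrays was 4.09, and both CT22 light arrays lay under the filter of 3.73, so the size of this difference is uncertain. MAPK11, the remaining tested p38 gene, differed by -0.32 at CT14 and 0.38 at CT22 (SE 0.13, adjusted p = 0.292 and 0.156). Probe sets of MAPK11 and MAPK12 share a cluster name in the array's design, so their signals may not be separate. The median over the 8 tested MAP kinases was 0.04 at CT6, -0.22 at CT14 and 0.04 at CT22, and MAPK13 was not tested (mean 0.59).

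In the tiers above, 1 of 20 tested genes passed for light at any of the 3 times, where 4.85% of all probe sets did. MAP3K13, the leucine zipper kinase that feeds the JNK branch, fell at CT22. MAP3K13 read 7.49 and 7.78 in light arrays against 7.89 and 7.69 in dark arrays at CT6. It read 8.01 and 7.90 in light arrays against 7.75 and 7.57 in dark arrays at CT14. It read 7.38 and 7.37 in light arrays against 8.01 and 7.84 in dark arrays at CT22. The groups overlapped at CT6, light lay above dark at CT14, and light lay below dark at CT22. The CT22 difference was -0.55 (SE 0.13, adjusted p = 0.0305), a 1.46-fold lower signal, beside -0.15 at CT6 and 0.29 at CT14 (adjusted p = 0.745 and 0.311). A second, dimmer probe set gave 0.26, 0.94 and -0.28 (adjusted p = 0.760 at CT22). The CT22 call was lost when any array of that time was left out, with differences of -0.64 to -0.46 and adjusted p-values of 0.0716 to 0.229.

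MAP2K3, a direct activator of p38, came next to the threshold at CT14. It read 6.36 and 6.33 in CT14 light arrays against 5.82 and 5.57 in CT14 dark arrays, a difference of 0.65 (SE 0.16, adjusted p = 0.0620). At CT6 it read 6.31 and 6.43 in light arrays against 5.95 and 6.18 in dark arrays, and at CT22 it read 6.25 and 6.49 in light arrays against 6.70 and 6.61 in dark arrays. The light values stayed within 0.24 of each other over the 3 times, while the dark values spanned 1.14. A probe set of similar brightness (mean 6.18) gave -0.49, 0.70 and 0.26 at the 3 times. MAP2K1, the main activator of ERK, differed by 0.10, -0.16 and 0.29 (SE 0.08), the last with an adjusted p of 0.0717. MAP2K2 differed by -0.20, -0.25 and -0.37 (SE 0.19), MAP2K4 by -0.01, -0.27 and -0.14 (SE 0.13) and MAP2K5, the activator of ERK5, by 0.32, -0.02 and -0.21 (SE 0.19). Over the 12 tested MAP3K genes the median was -0.02 at CT6, 0.14 at CT14 and 0.10 at CT22. The widest value, 1.58 for MAP3K15 at CT22 (adjusted p = 0.238), came with dark arrays of 5.45 and 2.87, and without the first dark array it was 2.87 with an adjusted p of 0.0289. The 3 MAP4K genes tested lay between -0.14 and 0.45 at all times. MAP2K6 and MAP3K8 were not tested.

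SPRY2, a feedback inhibitor of RAS and RAF signalling, was higher in light at CT22. SPRY2 read 8.22 and 8.08 in light arrays against 8.08 and 8.20 in dark arrays at CT6. It read 8.63 and 8.55 in light arrays against 8.38 and 8.51 in dark arrays at CT14. It read 8.41 and 8.41 in light arrays against 8.01 and 8.03 in dark arrays at CT22. The groups overlapped at CT6, were 0.04 apart at CT14 and 0.38 apart at CT22, where the replicates of each group were within 0.02 of each other. The differences were 0.01, 0.14 and 0.39 (SE 0.09 each), the last a 1.31-fold higher signal with an adjusted p of 0.0377. That call was lost under 10 of 23 alternative settings, among them leaving out either CT14 light array (adjusted p = 0.0539 and 0.0534) or any CT22 array (0.118 to 0.199). The SPRED genes encode related inhibitors. SPRED1 differed by 0.00, -0.21 and 0.24 (SE 0.13) and SPRED2 by -0.29, 0.33 and -0.17 (SE 0.18). SPRY1 and SPRY4 were not tested: over the 12 arrays they read 2.02 to 4.15 and 1.04 to 4.25. SPRY3 was not tested.

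At CT22 markers of cell types moved as well. Of 14 pinealocyte and photoreceptor markers, 5 passed the threshold with lower values in light, where 1.92% of all probe sets did. None passed with higher values. Of all 14, 2 had a difference above 0, and the median was -0.32. The 5 include AANAT, the rhythm-setting enzyme of melatonin synthesis (-0.83, adjusted p = 5.56e-04), and ISL1 (-0.54, adjusted p = 0.00340). The summed intensity of the list was 28309 to 30320 in CT22 light arrays against 34220 to 35105 in CT22 dark arrays. In dark arrays of the other times it was 31365 to 32896 at CT6 and 29361 to 30261 at CT14. Of the 14 markers, 9 passed the test for time of day in the dark, where 6.43% of all probe sets did. The test that the light response differed between times passed for 5 of the 14, where 1.35% of all probe sets passed. COL1A1 and COL1A2 of the 7 fibroblast markers, CLDN5 of the 6 tested vessel markers and FOLR1 and KL of the 5 choroid plexus markers passed with higher values in light, and GFAP and MBP of the 6 glial markers with lower ones. Over these lists the median difference was 0.03 for fibroblast, -0.01 for vessel, 0.05 for choroid plexus and 0.02 for glial markers, with values above 0 for 5 of 7, 3 of 6, 3 of 5 and 3 of 6 tested markers. OTX2 was on both the pinealocyte and the choroid plexus list. No neuron, macrophage, muscle or erythrocyte marker passed. Their medians were -0.20, -0.06, -0.43 and 0.01, with values above 0 for 1 of 5, 2 of 8, 0 of 2 and 2 of 4 tested markers. Of 7 lymphocyte markers none passed, the median was -0.39 and 1 was above 0, with sums of 335 to 418 in light against 475 to 693 in dark. Summed fibroblast markers read 9908 to 10479 in light against 9390 to 10089 in dark, and summed glial markers 1312 to 1413 in light against 1655 to 1658 in dark. At CT14 the pinealocyte sum was 32342 to 32988 in light against 29361 to 30261 in dark. The median difference of these markers was 0.20, with 10 of 14 above 0, and RBP3 passed with a higher value in light. The erythrocyte sum at CT14 was 6051 to 6507 in light against 8248 to 8870 in dark. Of 4 tested erythrocyte markers 1 was above 0, the median was -0.48 and none passed. COL1A1 was higher in light at CT14, where 7 of 7 fibroblast markers were above 0 with a median of 0.09. The part of these shifts in the results for DUSP8, DUSP15, MAP3K13 and SPRY2 was not tested. Nor was the part of RNA quality in the CT14 values of RBP3 and COL1A1, where the actin ratio differed between light and dark arrays.

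The test that the light response differed between the 3 times passed for 0 of 48 members, where 1.35% of all probe sets passed. At an unadjusted p under 0.05, 7 members and 15.2% of all probe sets did. Between single pairs of times, the response at CT22 minus that at CT14 passed for 2 members, against 2.26% of all probe sets. For MAP2K3 this difference was -0.94 (SE 0.23, adjusted p = 0.0492), and for MAP3K13 it was -0.84 (SE 0.18, adjusted p = 0.0288). On the probe sets that stood for them, both genes lay higher in light at CT14 and lower in light at CT22. Their values in the test over all 3 times were adjusted p = 0.110 and 0.0686. A further probe set of MAP2K3, of similar brightness, lay higher in light at both CT14 and CT22. DUSP8, with the largest light response, gave -2.04 (SE 0.58) for the same difference and an adjusted p of 0.0910. The differences between CT14 and CT6 and between CT22 and CT6 passed for 0 members each, where 0.113% and 0.247% of all probe sets did. At an unadjusted p under 0.05 the limma fit gave 6 members for each, beside 10.4% and 11% of all probe sets. The MAP2K3 call was lost under 16 of 22 alternative settings and the MAP3K13 call under 11 of 22, leaving out single arrays included.

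Time of day in the dark was tested between the 3 dark groups, with the spread taken from all 12 arrays. It passed for 4 of 48 members, MAP2K3, DUSP1, DUSP14 and SPRY2, where 6.43% of all probe sets passed. Leaving out any one of the CT14 and CT22 dark arrays ended some of these calls. Without the first CT22 dark array those of MAP2K3, DUSP1 and SPRY2 ended, and MAP3K15, not among the 4, gained one. MAP2K3 read 5.95 and 6.18 at CT6, 5.82 and 5.57 at CT14, and 6.70 and 6.61 at CT22 in dark arrays. It was 0.97 higher at CT22 than at CT14 (SE 0.16, adjusted p = 0.00267), a 1.95-fold higher signal and a call that held under all 22 alternative settings. Its next 2 probe sets by mean gave 0.53 and 0.75 for this step (adjusted p = 0.176 and 0.419). Its test over the 3 dark times (adjusted p = 0.00684) was lost without the first CT22 dark array (0.0644) and with the mean of its probe sets (0.0715). DUSP1 was lowest at CT14, with dark values of 9.82 and 9.57 at CT6, 9.10 and 9.30 at CT14, and 9.44 and 9.48 at CT22. The step to CT14 was -0.49 (SE 0.11, adjusted p = 0.0252), and without the first CT6 dark array or the first CT14 dark array it was -0.37 and -0.39 (adjusted p = 0.216 and 0.182). The call was also lost with values as deposited (-0.50, adjusted p = 0.0899), with arrays centred on their median (-0.39, 0.0668) and with the actin ratio in the fit (-0.45, 0.0660). Its test over the 3 dark times (adjusted p = 0.0383) was lost without the first CT6 or first CT14 dark array (0.168 and 0.207) or either CT22 dark array (0.0763 and 0.0684).

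Other members were highest in the dark at CT14 and lower at CT22. DUSP14 read 9.28 and 9.09 at CT6, 9.43 and 9.58 at CT14, and 9.06 and 8.99 at CT22 in dark arrays, a step of -0.48 between CT22 and CT14 (SE 0.08, adjusted p = 0.00402). SPRY2 read 8.08 and 8.20 at CT6, 8.38 and 8.51 at CT14, and 8.01 and 8.03 at CT22, with a step of -0.43 (SE 0.09, adjusted p = 0.0155). The CT14 dark arrays were the highest dark arrays for both genes. The test over the 3 dark times gave an adjusted p of 0.00958 for DUSP14, lost without the second CT14 dark array (0.0798), and 0.0312 for SPRY2, lost without any one CT14 or CT22 dark array (0.0698 to 0.193). MAPK11 read 7.04 and 7.32 at CT6, 7.62 and 7.56 at CT14, and 6.93 and 7.17 at CT22, with a step of -0.54 (SE 0.13, adjusted p = 0.0290), beside -0.43 (adjusted p = 0.248) for its second probe set. DUSP6 read 6.21 and 6.14 at CT6, 6.74 and 6.61 at CT14, and 6.06 and 5.65 at CT22, with a step of -0.82 (SE 0.21, adjusted p = 0.0306). The test over the 3 dark times did not pass for MAPK11 (adjusted p = 0.0533) or DUSP6 (0.0666). In all, 5 members passed between CT22 and CT14 in the dark, against 6.54% of all probe sets, 1 between CT14 and CT6 against 3.46%, and 0 between CT22 and CT6 against 1.11% (5 members and 11.4% at an unadjusted p under 0.05 in the limma fit). The steps down depended on scale: with values as deposited, where all probe sets shifted by a median of 0.37 between these groups, they became -0.16 for DUSP14, -0.07 for SPRY2, -0.17 for MAPK11 and -0.45 for DUSP6, with adjusted p-values of 0.159 to 0.708, and relative to that shift they were -0.53, -0.44, -0.54 and -0.82. Leaving out 1 dark array ended the calls between CT22 and CT14 of MAPK11 (either CT14 array or the first CT22 array, adjusted p = 0.0812 to 0.248), DUSP6 (either CT14 array or the second CT22 array, 0.0758 to 0.213) and SPRY2 (the second CT14 array or either CT22 array, 0.0702 to 0.110).

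Across the 48 tested members the highest dark mean fell at CT14 for 22 genes, at CT22 for 16 and at CT6 for 10. Over all probe sets tested the shares were 36.0%, 34.4% and 29.6%, beside 45.8%, 33.3% and 20.8% of the members. Both CT14 dark arrays stood above the other 4 dark arrays for 9 members, where 13.4% of all probe sets did. For 6 of these, MAPK11, MAPK15, MAP2K1, MAP2K4, DUSP5 and DUSP6, they also stood above both CT14 light arrays, where 8.26% of all probe sets did. These comparisons use the CT14 dark arrays, which also enter the light response at CT14 and had actin ratios of 4.67 and 3.95. The ratio was 3.89 and 4.17 in CT6 dark arrays and 3.94 and 4.10 in CT22 dark arrays. Only the first CT14 dark array thus lay above all other dark arrays. The part of RNA quality in these comparisons was not tested beyond the fit with that ratio as a covariate. In that fit 2 of 48 members passed for time of day in the dark.

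**Figure D4:**
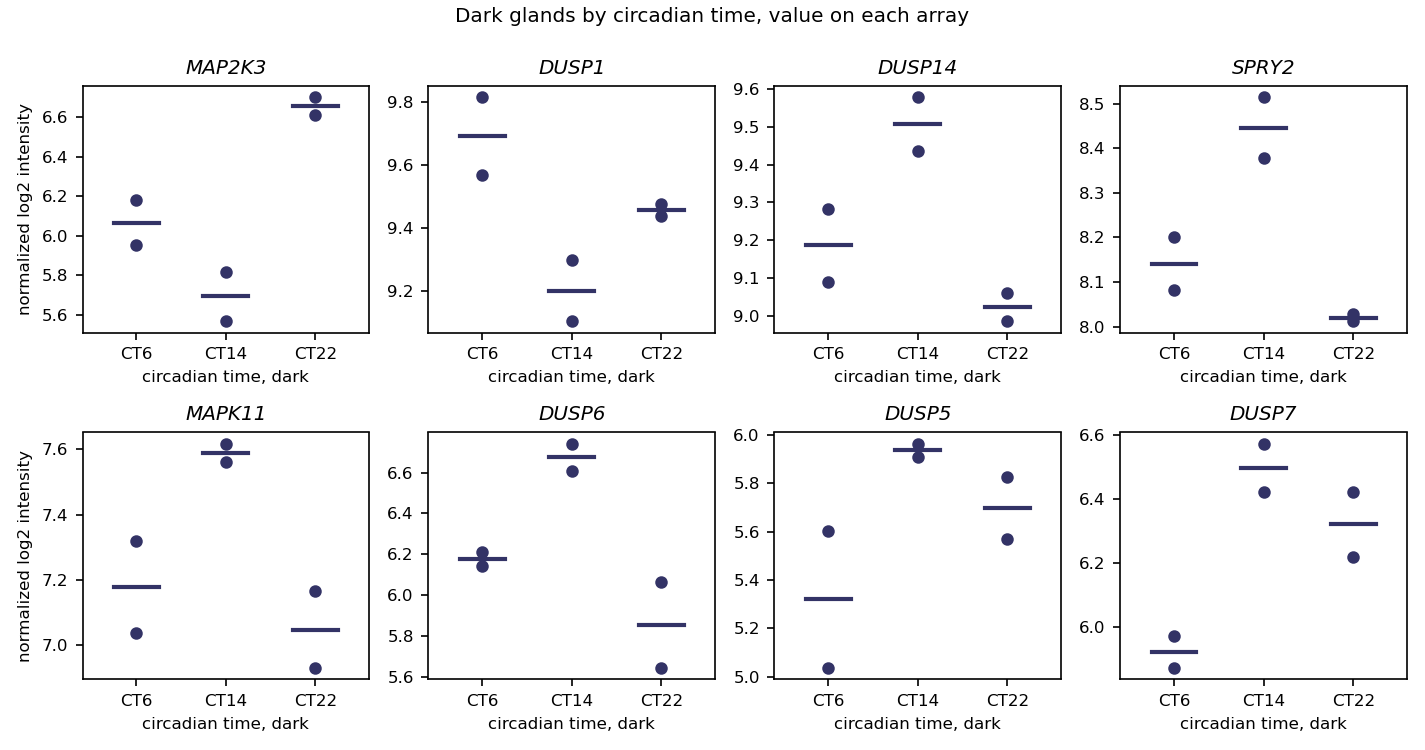
Normalized log2 intensity (y axis, scaled for each gene) on each of the 6 dark arrays at CT6, CT14 and CT22, with bars at the group means, for MAP2K3, DUSP1, DUSP14, SPRY2, MAPK11, DUSP6, DUSP5 and DUSP7. In the dark MAP2K3 and DUSP1 are lowest at CT14, while the other 6 genes have their highest dark mean there.

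Of 46 other genes of the pathway that were tested, from 4 lists, 1 passed for light at CT6, 2 at CT14 and 5 at CT22, where 0.221%, 1.67% and 3.64% of all probe sets did. On average over the times 5 passed, where 3% of all probe sets did. Each gene was represented by its probe set with the highest mean, and others were not examined. RAP1A, MAPK8IP1 and MAPK8IP3 have 3 probe sets each. Of 16 tested RAS, RAF and adaptor genes, 1 passed at any time, RAP1A, a small GTPase related to RAS, with 0.34 at CT22 (adjusted p = 0.0172) and an average of 0.23 (adjusted p = 0.00624). Of 8 tested kinases downstream of MAP kinases, RPS6KA1, which encodes the ribosomal S6 kinase RSK1, passed on average with 0.36 (SE 0.08, adjusted p = 0.0321). Of 7 tested scaffold and tyrosine phosphatase genes, MAPK8IP1, the JNK scaffold JIP1, rose by 0.61 at CT14 (SE 0.11, adjusted p = 0.00894), and MAPK8IP3, another JNK scaffold, gave -0.40 at CT22 (adjusted p = 0.0495). MAPK8IP1 also varied with time in the dark (adjusted p = 2.92e-05): it was 0.89 lower at CT14 than at CT6 and 1.27 higher at CT22 than at CT14 on the log2 scale. Light and dark arrays at CT14 differed in actin ratio, and with that ratio in the fit 18 of all probe sets passed at CT14, against 386. The part of RNA quality in the CT14 value of MAPK8IP1 was not tested.

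Of 36 listed transcription factor and immediate early genes 23 were named on the array and 15 tested. At CT22, 2 of these passed with lower and 1 with higher values in light, and 7 of the 15 differences were above 0. EGR1, an early target of ERK signalling, read 9.19 and 8.79 in CT22 light arrays against 10.51 and 10.39 in CT22 dark arrays. Its differences were -0.49, -0.83 and -1.46 at CT6, CT14 and CT22 (SE 0.13 each, adjusted p = 0.159, 0.00349 and 2.72e-05), and they differed between times (adjusted p = 0.0397). The part of RNA quality in its CT14 value was not tested. ETV5, an ETS factor downstream of ERK, gave -0.71, -0.25 and -0.99 (SE 0.15) and passed at CT22 (adjusted p = 0.00303). CCN2, a secreted matrix protein gene, was higher by 0.62 at CT22 (adjusted p = 0.00997). CCN2 read 10.15 and 10.31 in CT22 light arrays against 9.55 and 9.68 in CT22 dark arrays, its lowest dark values. Its dark arrays read 10.10 and 10.45 at CT6 and 10.56 and 10.82 at CT14, and its light arrays 10.27 and 10.35, and 10.60 and 10.48. The test over the 3 dark times gave an adjusted p of 2.47e-04 for CCN2 and 0.0145 for EGR1. MEF2D, a target of p38 and ERK5, gave -0.70 at CT6, 0.28 at CT14 and -0.45 at CT22 (adjusted p = 0.0279, 0.288 and 0.0510). MEF2D also passed the test of a difference between times (adjusted p = 0.0216). EGR1 has 2 probe sets and ETV5 and MEF2D have 5 each, of which only the brightest was read. On average over the times EGR1, ETV5 and MEF2D passed with lower values in light, at -0.93, -0.65 and -0.29 (limma adjusted p = 5.08e-06, 6.40e-04 and 0.0323). FOS was too dim to test, with a mean of 2.88. At CT22, where EGR1 and ETV5 were lower in light, the ERK phosphatases DUSP5, DUSP6 and DUSP7 differed by -0.34, -0.02 and -0.12 without passing, and SPRY2 was higher. As 7 of the 15 listed genes were above 0 at that time, EGR1 and ETV5 do not stand for the list. A link of these values to ERK signalling was not tested.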

How the data were processed

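RNA from pineal glands was measured on 12 Affymetrix chicken arrays, 2 for each of 6 groups. The authors deposited 1 linear intensity per probe set and array. How the values were summarized and scaled is not given in the sources used here. Groups come from the sample labels. The deposited intensities were put on the log2 scale and quantile normalized over 38535 probe sets. Then 96 controls were dropped, and values under a linear intensity of 1 were raised to 1. Of 38439 probe sets, the 23063 whose mean exceeded the 40th percentile (3.73) were kept. Per the platform annotation, 27168 probe sets have 1 gene, 177 several and 11094 none. Group means were fitted with limma 3.58.1 in R 4.3.3 (empirical Bayes with a trend, 6 residual degrees of freedom), with Benjamini-Hochberg adjustment over all probe sets tested and a threshold of 0.05; the code was tested on simulated data. The contrasts compared light with dark per time and on average, their differences, and time in the dark.

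Members, gene lists and markers were chosen with earlier results of these data known. Members described are those past the threshold in any contrast and a fixed list of feedback genes and kinases, whatever their values (DUSP1, DUSP4, DUSP5, DUSP6, DUSP8, DUSP10, DUSP16, SPRY1, SPRY2, SPRY4, SPRED1, SPRED2, MAPK8, MAPK14 and MAP2K1). MAPK3 and 1 further listed gene are not reported here. The other members named were chosen after their values were seen. Replicate numbers did not pair the samples: over 15 pairs of groups the correlation of same-numbered deviations ran from -0.03 to 0.03. Alternatives were deposited or median-centred values, other filters, floors and probe set rules, no trend, a replicate block, the actin ratio as a covariate, the arrays of 1 time only, and leaving out each array.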

Additional observations from a re-analysis of the deposited data

Results flagged for a closer look

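The light response of MAP2K3 differed between CT22 and CT14 by -0.94 log2 units (SE 0.23, adjusted p = 0.0492 in limma), with a value of -0.29 at CT22 and 0.65 at CT14. The light response of MAP3K13 differed between the same times by -0.84 (SE 0.18, adjusted p = 0.0288), with -0.55 at CT22 and 0.29 at CT14. Both were singled out because a direct test of the difference between the 2 times passed the threshold. The test over all 3 times did not pass for either gene (adjusted p = 0.110 for MAP2K3 and 0.0686 for MAP3K13). Over the alternative settings the adjusted p ran from 0.0297 to 0.513 for MAP2K3 and from 0.0202 to 0.504 for MAP3K13. A further probe set of MAP2K3, higher in light at both times, gave -0.44 (adjusted p = 0.530) and that of MAP3K13 gave -1.22 (adjusted p = 0.242). The CT14 and CT22 dark arrays enter both this difference and the comparison of dark times, where MAP2K3 also passed.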

How the results depend on the processing

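Alternatives were run for the members and for counts, not for single marker or other pathway genes. No called value of a member changed sign under them. The larger moves in the number of members past the threshold were as follows. At CT14, against 0, it was 2 with values as deposited and 2 with a filter at the 60th percentile. At CT22, against 4, it was 1 with no filter, 2 with the 60th percentile and 0 with no variance trend. For the average, against 4, it was 1, 2 and 1 under these 3 settings and 1 with the actin ratio added to the fit. In both results the 60th percentile filter left DUSP8 and DUSP15 untested, and the other called members kept their calls under it. The test of time dependence gave 1 with the 60th percentile, against 0. Time of day in the dark, against 4, gave 8 with the 60th percentile, 1 with no trend and 2 with the actin ratio. With values as deposited, DUSP14 and SPRY2 lost this call. MAPK4, MAPK9, MAP3K4 and MAP3K13 gained it under that setting (adjusted p = 0.00933, 0.0162, 0.0171 and 0.0254). Leaving out 1 array gave 0 to 1 members at CT6, 0 to 2 at CT14, 0 to 4 at CT22, 1 to 3 for the average, 0 to 1 for time dependence and 2 to 5 in the dark. The replicate block gave 0 members at CT6, 0 at CT14, 4 at CT22, 3 for the average and 3 in the dark, and ended the calls for DUSP1 on average (adjusted p = 0.0591) and in the dark (0.0524) and for MAP2K3 between CT22 and CT14 (0.0637). Over all alternatives the adjusted p ran from 8.09e-04 to 0.0250 for the average of DUSP15, from 0.00312 to 0.0754 for DUSP8 at CT22, from 0.00438 to 0.276 for the average of MAPK4 and from 0.00976 to 0.502 for that of DUSP1. It ran from 0.0103 to 0.182 for DUSP15, from 0.0215 to 0.361 for MAP3K13 and from 0.0270 to 0.324 for SPRY2 at CT22. Of 12104 values of members without a call, 57 gained one. Over all probe sets the counts at CT6, CT14 and CT22 were 51, 386 and 840, against 26, 355 and 509 with values as deposited, 20, 212 and 426 with no filter, 9, 105 and 162 with no trend, and 61, 18 and 1002 with the actin ratio. Higher in light were 80.4%, 68.4% and 47.4% of them, against 96.2%, 84.8% and 32.6% with values as deposited, where the median of all probe sets shifted by 0.12 at CT14 and -0.11 at CT22; with arrays centred on their median 250 passed at CT6, 97.2% of them higher. Between CT22 and CT14 in the dark 1508 probe sets passed, against 5389 with values as deposited. The cause of these shifts was not tested.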
